A study of Rattus norvegicus with 60 samples.

Results

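The amygdala of juvenile male rats was compared between lines selectively bred as HR and LR, at postnatal day 21 (P21). The comparison holds 10 of the 60 arrays of the series, the 5 amygdala arrays labelled HR and P21 and the 5 labelled LR and P21. Both lines were kept on a Sprague-Dawley background, the series describes them as a model of high and low anxiety- and depression-like behaviour, and the labels name no treatment. The other arrays of the series covered the same lines at P7 and P14 and the prefrontal cortex at all 3 ages, with 5 arrays per group. The source label calls the region dissected whole, whereas the protocol speaks of portions of it, cut from 300 µm frozen sections under the guidance of stained 20 µm neighbours. Which amygdala nuclei were taken is therefore uncertain. The cell types of the dissected tissue were measured together, and in such bulk tissue fewer cells of a type and less RNA per cell cannot be told apart.

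The amygdala is a group of nuclei in the temporal lobe that processes threat and social signals and drives defensive behaviour. Its basolateral nuclei hold mostly glutamatergic projection neurons, and its central and medial nuclei hold mostly GABAergic neurons that also make peptides such as enkephalin, somatostatin and corticotropin-releasing hormone. It borders the hypothalamus, the striatum, the cortex and the ventricle with its choroid plexus, and around weaning its neurons are still forming synapses while astrocytes and myelin mature. Peptide and interneuron markers of the amygdala were bright on these arrays: the mean log2 intensity was 13.05 in HR rats and 13.07 in LR rats for Penk (enkephalin), and 11.98 in HR rats and 11.73 in LR rats for Sst (somatostatin). Gad1 and Gad2, the enzymes that make GABA, had means of 5.57 in HR rats and 5.90 in LR rats, and 5.79 in HR rats and 5.89 in LR rats. Slc17a7, a vesicular glutamate transporter, had 5.34 in HR rats and 5.56 in LR rats, so these defining markers of amygdala neurons all lay below the median row of the table (intensity 64.4).

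Expression was read as normalized intensity on single-colour arrays, and differences are given on the log2 scale as HR minus LR, with the standard error (SE) of a limma fit and a p-value adjusted by the Benjamini-Hochberg method over all 17519 rows. A row was called at an adjusted p under 0.05. The labels tie no array to a named animal, so the p-values reflect only how far these samples spread, which may be partly technical, and for arrays their number limits the precision. The 5 HR arrays carried the numbers 31 to 35 in the table and the 5 LR arrays the numbers 36 to 40, and the sources used here do not say whether neighbouring numbers shared a slide or a run. LR array 36 stood apart. It correlated at 0.947 to 0.949 with the other 4 LR arrays, which correlated at 0.970 to 0.972 among themselves, and at 0.933 to 0.943 with the HR arrays, which correlated at 0.964 to 0.974 among themselves (Pearson's r of log2 intensity over all rows). It was closer to the other LR arrays than to any HR array. Results are therefore also given without array 36 where that changes them, and set beside the difference between the HR arrays and array 36 alone, the LR array next to them in number.

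**Figure D1:**
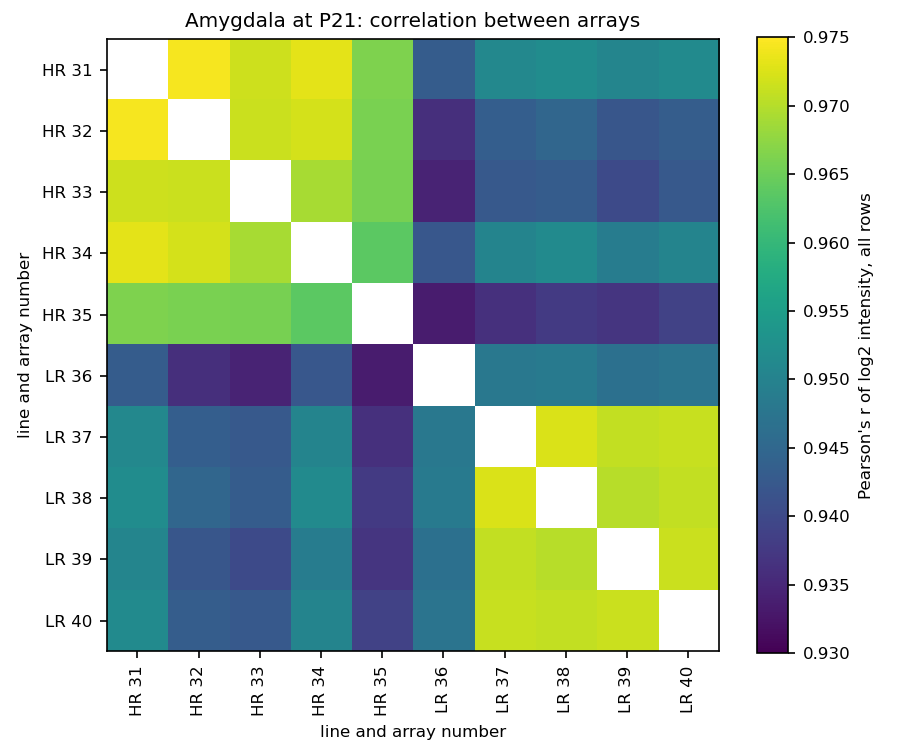
Pearson's r between the 10 P21 amygdala arrays, computed on log2 intensity over all rows; both axes give line and array number, and the blank diagonal is each array with itself. The 5 HR arrays (0.964 to 0.974) and LR arrays 37 to 40 (0.970 to 0.972) form separate blocks, and LR array 36 stays at 0.949 or below with every other array.

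At P21, 1686 of 17519 rows were called (9.62%), of which 959 were higher in HR rats (5.47%) and 727 were lower (4.15%). The median size of a called difference was 0.90 on the log2 scale, 681 called rows differed by at least 1 and 63 by at least 2, and the median difference over all rows was -0.021. On 2015 rows (11.5%) the 5 HR arrays did not overlap the 5 LR arrays, and 1322 rows (7.55%) both were called and did not overlap. Genes named below for their calls were chosen on the same arrays, so a lack of overlap in them is a description and adds no support. Without array 36, 1757 rows were called (10%), 872 higher (4.98%) and 885 lower (5.05%), and 1434 of the original calls remained with the same sign. When array 36 was the only LR array set beside the HR arrays, 34 of the 1686 calls had the opposite sign; with 1 array in a line this is a difference of values and no test of the lines.

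The largest difference with lower values in HR rats was in Pmch, the precursor of melanin-concentrating hormone, a feeding and sleep peptide made by neurons of the lateral hypothalamus that send axons to the amygdala. Its intensity was 137, 78.8, 48.97, 88.99 and 61.4 on the HR arrays (31 to 35 in order), against 747, 623, 609.6, 757 and 588 on the LR arrays (36 to 40 in order). Every HR array lay far below every LR array, array 36 included. The log2 difference was -3.08 ± 0.21 (SE), 8.48-fold higher in LR, with an adjusted p of 3.01e-11. Nipsnap1, which encodes a mitochondrial matrix protein, gave intensities of 110.2, 71.8, 77.1, 75.8 and 72.01 in HR rats, against 329, 468, 446, 470.4 and 321 in LR rats, again with no overlap. Its log2 difference was -2.32 ± 0.19 with an adjusted p of 5.5e-10, and 4 of the 5 HR arrays lay between 71.8 and 77.1 while array 31 was higher.

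Hba-a3, an alpha-globin gene, had intensities of 207, 209.6, 155, 289.9 and 108 in HR rats, against 705, 909, 752, 884 and 777 in LR rats. The groups did not overlap, and the log2 difference was -2.12 ± 0.28 (adjusted p = 3.15e-06, limma). Among the other globin rows, Hbe2 was called higher and the rest were not called. Hba-a1 ranged from 35491 to 42262 in HR rats, against 29156 to 37065 in LR rats (log2 difference 0.17, adjusted p = 0.432), and Hbb from 25326 to 31662 in HR rats, against 30045 to 39547 in LR rats (log2 difference -0.29, adjusted p = 0.121). Near-identical globin copies can share probe signal, so the identity of the transcript behind the Hba-a3 row is uncertain. Sox2, a transcription factor that keeps neural progenitors undifferentiated and is also present in astrocytes, gave 638, 574, 332, 317 and 348 in HR rats, against 1346, 1635, 1589, 1918 and 1825 in LR rats. All 5 HR arrays were below the lowest LR array, which was array 36, and the log2 difference was -1.97 ± 0.19 (adjusted p = 1.6e-08).

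A pair of genes of transmitter release followed. Cplx2 encodes complexin 2, which clamps and then helps SNARE-driven vesicle fusion, and its intensity was 881, 872, 569, 706 and 463 in HR rats, against 1924, 2037, 2023, 2083 and 2068 in LR rats. The LR arrays lay within a narrow range and the HR arrays spread over a wider one below it (log2 difference -1.58 ± 0.15, adjusted p = 1.6e-08). Vamp1, a synaptobrevin of fast-firing neurons, gave 68.7, 79.3, 66.6, 63.3 and 87.8 in HR rats, against 155, 226, 219, 253 and 202 in LR rats, with no overlap and a log2 difference of -1.52 ± 0.24 (adjusted p = 3.53e-05). Morf4l1, a chromatin protein that reads methylated histone H3, gave 319.9, 264, 253, 235 and 165 in HR rats, against 690.5, 759, 667, 664 and 599.9 in LR rats. The log2 difference was -1.48 ± 0.18 with an adjusted p of 1.21e-06. Hprt1, the purine salvage enzyme that is often used as a reference gene, was lower in HR rats on every array: its intensity was 243, 161, 257, 181 and 138 in HR rats, against 568, 487, 486, 546 and 519 in LR rats, a log2 difference of -1.45 ± 0.23 (adjusted p = 5.6e-05).

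No overlap was also seen for Stk10, Grifin and Gnal, and other rows of Stk10 and Gnal were not called. Stk10, a serine/threonine kinase of lymphocytes, ranged from 29.1 to 38.6 in HR rats, against 89.6 to 146 in LR rats (log2 difference -1.82 ± 0.25), but 2 other rows of the gene gave 0.38 and 0.20 and were not called. Grifin, a galectin relative known from the lens, ranged from 77.3 to 186 in HR rats, against 334 to 495 in LR rats (log2 difference -1.55 ± 0.25). Gnal, the alpha subunit of the G protein that couples dopamine and odorant receptors to adenylyl cyclase, ranged from 38.2 to 61.5 in HR rats, against 93.8 to 142 in LR rats (log2 difference -1.38 ± 0.30), and a second row of it gave -0.38 and was not called. The adjusted p was 5.8e-06 for Stk10, 6.98e-05 for Grifin and 0.00228 for Gnal.

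In 4 of the 15 genes with the largest lower values, array 36 lay with the HR arrays or close to them. Zfp319, a zinc finger gene, had intensities of 60.05, 50.1, 65.96, 51.01 and 39.2 in HR rats, against 73.5, 393, 392, 253 and 334 in LR rats, where the first LR value is array 36. Sec61g-ps1, a pseudogene of a protein translocation channel subunit, gave 151, 110.2, 129, 149 and 53.5 in HR rats, against 69.96, 509.6, 486, 539 and 572 in LR rats. The olfactory receptor gene Or1o2e gave 80.1, 88.3, 58.5, 61.1 and 43.5 in HR rats, against 70.8, 238, 323, 199 and 263 in LR rats. For Akna, an AT-hook transcription factor gene, the values were 91.8, 39.96, 43.4, 52.9 and 94.2 in HR rats, against 79.6, 191, 152, 210.4 and 198 in LR rats. In each of these genes LR arrays 37 to 40 lay above all HR arrays, and array 36 lay inside the HR range for Sec61g-ps1, Or1o2e and Akna and just above it for Zfp319. The log2 differences were -2.25, -1.66, -1.60 and -1.38 over all arrays. Against array 36 alone they were -0.49, 0.67, -0.14 and -0.40, with no test. For these genes the line and the array number of LR arrays 37 to 40 cannot be told apart. A second row of Zfp319 gave 0.25 and was not called.

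**Figure D2:**
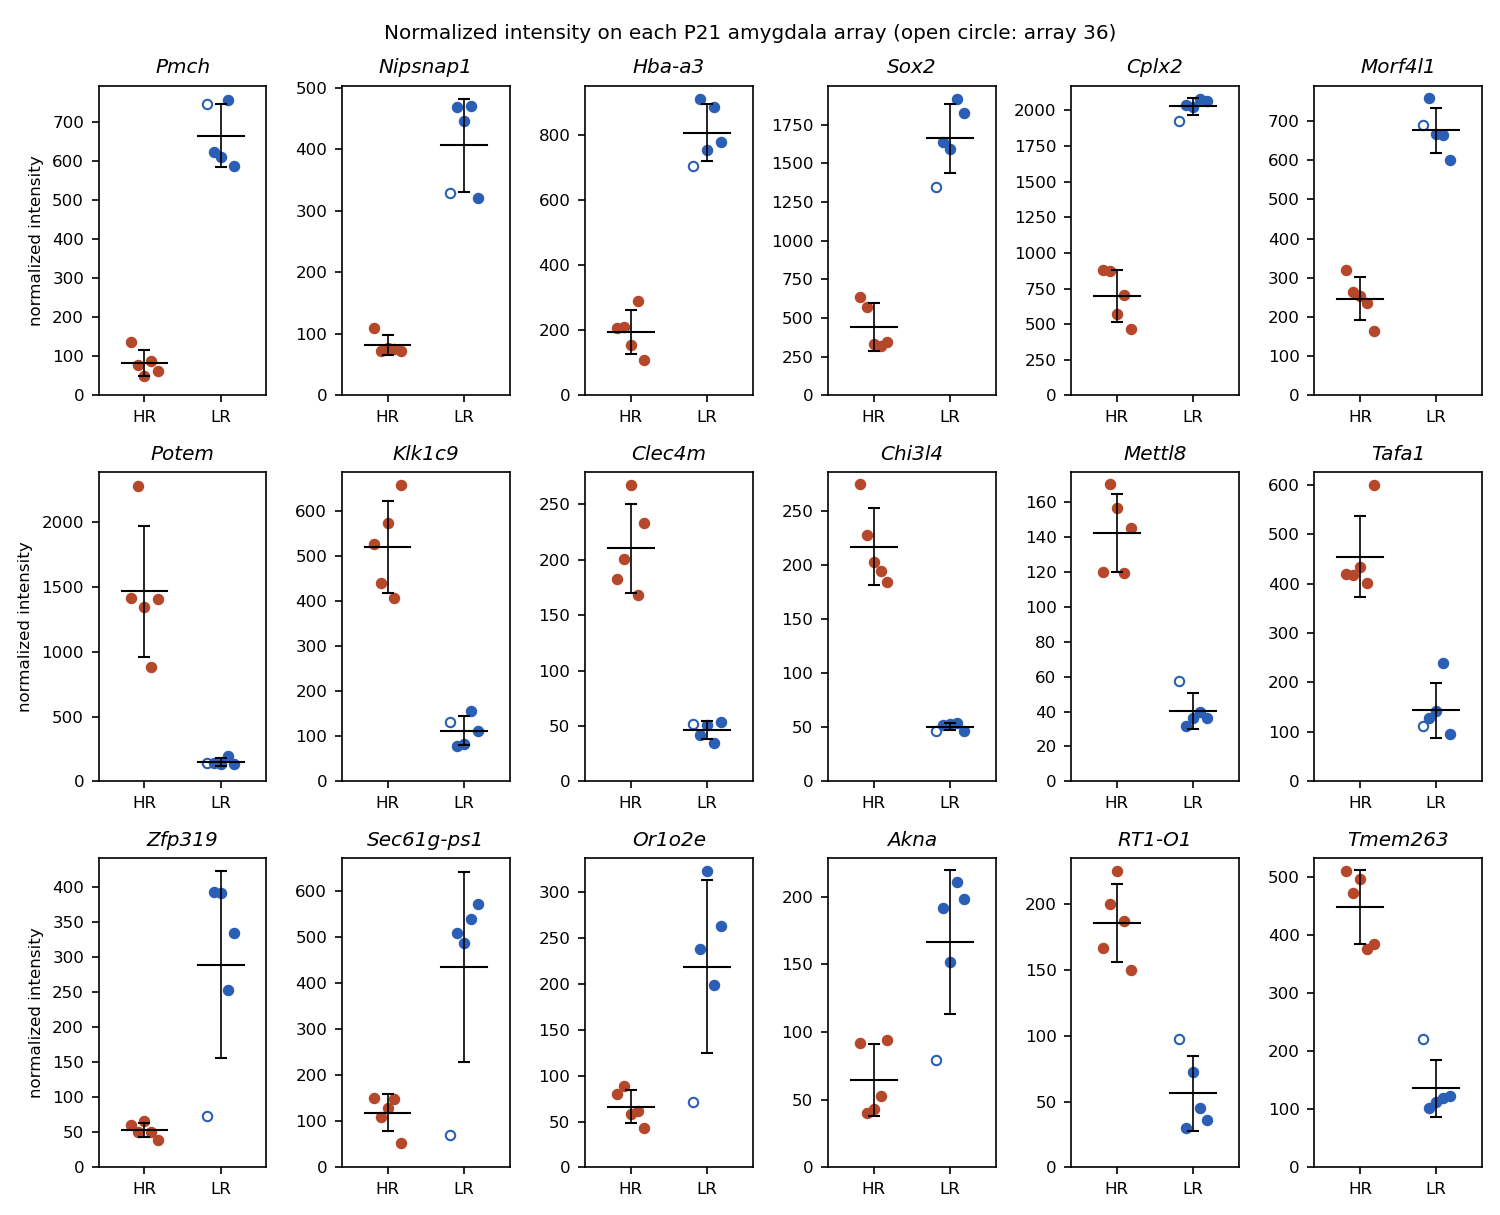
Normalized intensity (vertical axes, linear and starting at 0) of 18 genes on the 5 HR and 5 LR amygdala arrays at P21; points are arrays, the open circle is LR array 36, and the line and bar are the group mean and SD. The upper row shows genes lower in HR rats on every array, the middle row genes higher in HR rats on every array, and the lower row genes in which array 36 differed from LR arrays 37 to 40.

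Among the genes that were higher in HR rats, Potem, a gene of the POTE ankyrin-domain family, differed most. Its intensity was 1413, 2279.8, 1347, 882 and 1410.4 in HR rats, against 142, 142, 133, 200 and 137 in LR rats. The lowest HR array was several-fold above the highest LR array, and the log2 difference was 3.23 ± 0.24 (9.41-fold, adjusted p = 1.06e-10). Klk1c9, a tissue kallikrein protease, gave 526, 439, 573, 406 and 658 in HR rats, against 131, 79.5, 83.2, 156 and 111 in LR rats, and Clec4m, a C-type lectin receptor, gave 183, 200.3, 268, 168 and 233 in HR rats, against 51.5, 41.8, 50.6, 34.5 and 54.02 in LR rats. Both separated the lines completely, with log2 differences of 2.24 ± 0.28 and 2.18 ± 0.31 (adjusted p = 1.04e-06 and 1.03e-05). A second Clec4m row differed by 2.07 and was called as well. Kallikrein copies in the rat genome are closely related, so the Klk1c9 row may hold signal from several of them.

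Chi3l4, a chitinase-like gene, had intensities of 275, 228, 203, 195 and 185 in HR rats, against 46.97, 52.2, 53.1, 54.01 and 46.9 in LR rats. All 5 LR arrays lay below the median row of the table (64.4) while every HR array was above it, and the log2 difference was 2.09 ± 0.20 (adjusted p = 1.24e-08). Mettl8, an enzyme that methylates RNA, gave 120.2, 170.2, 156, 119 and 145 in HR rats, against 57.6, 31.7, 36.04, 39.8 and 36.5 in LR rats. Array 36 was the highest LR array, and the groups did not overlap (log2 difference 1.84 ± 0.19, adjusted p = 5.54e-08). A second Mettl8 row differed by -0.36 and was not called. Tafa1, a secreted chemokine-like protein of neurons, gave 419, 418, 434, 402 and 599.9 in HR rats, against 113, 128, 142, 239 and 96.6 in LR rats (log2 difference 1.72 ± 0.25, adjusted p = 1.31e-05). HR array 35 was its highest value, and the lines did not overlap.

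The other 9 of the 15 largest higher values also showed no overlap between lines, which their choice by large called differences on the same arrays favours. Tex35, named for its expression in testis, ranged from 142 to 303 in HR rats, against 42.2 to 66.3 in LR rats. Mall, a membrane proteolipid of the MAL family, ranged from 234 to 437 in HR rats, against 63.1 to 107 in LR rats, and Senp17, of the SUMO protease family, from 649 to 923 in HR rats, against 113 to 427 in LR rats. Their log2 differences were 2.19 ± 0.26, 1.75 ± 0.29 and 1.72 ± 0.32. The keratin-associated genes Krtap10l1 and Krtap10-10l1 differed by 1.89 ± 0.30 and 1.79 ± 0.30, and both other rows of Krtap10l1 were called in the same direction (1.49 and 1.06; without array 36 the smaller one had an adjusted p of 0.0542). Taar7h, a trace amine receptor known from olfactory tissue, differed by 1.88 ± 0.27. Iftap, an intraflagellar transport gene, differed by 1.98 ± 0.25, while its other rows gave -0.26 and -0.50 and were not called. RT1-O1, a major histocompatibility class I gene of the rat, differed by 1.85 ± 0.40, and Tmem263, a membrane protein gene, by 1.77 ± 0.29, with a second row at 0.62 that was not called. The adjusted p-values of these 9 genes lay between 5.29e-07 (Tex35) and 0.0022 (RT1-O1), by limma with Benjamini-Hochberg adjustment.

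In RT1-O1, Tmem263 and Taar7h, among the genes with the largest higher values, array 36 was the highest LR array, as in Mettl8. Taar7h ranged from 536 to 800 in HR rats and gave 289 on array 36, against 99.5 to 198 on LR arrays 37 to 40. RT1-O1 gave 166, 199.8, 225, 187 and 149.7 in HR rats, against 97.8, 29.9, 72.7, 44.995 and 36.2 in LR rats, and Tmem263 gave 511, 474, 498, 377 and 385 in HR rats, against 222, 103, 113, 120.4 and 122.97 in LR rats. The differences against array 36 alone were 0.91 for RT1-O1, 1.004 for Tmem263, 1.17 for Taar7h and 1.29 for Mettl8. These and the next values set the HR mean against 1 LR array, with no test. Pmch, Nipsnap1, Sox2, Cplx2 and Morf4l1 differed from array 36 alone by -3.26, -2.03, -1.67, -1.51 and -1.51, and Potem, Klk1c9 and Chi3l4 by 3.30, 1.96 and 2.19.

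The genes were also grouped in 36 lists by cell type and function, some of them kept as controls. Each list was described by how many of its measured genes were called, beside 5.47% higher and 4.15% lower over all rows. Calls were more frequent on brighter rows: of the rows above the median row, 8.6% were higher and 7.27% were lower, with a median log2 difference of -0.055. Markers of amygdala neurons were mostly not called. Of 31 measured genes, 1 was higher and 1 was lower in HR rats, the median log2 difference was -0.10, and 17 of the 31 lay above the median row. Dlk1, a Notch-like membrane protein, had intensities of 92.6, 122, 79.9, 57.4 and 77.3 in HR rats, against 53.7, 55.4, 41.2, 51.2 and 47.1 in LR rats (log2 difference 0.75 ± 0.24, adjusted p = 0.046; without array 36 the adjusted p was 0.0536). Neurod2, a transcription factor of glutamatergic projection neurons, gave 87.3, 69.7, 73.9, 82.3 and 60.5 in HR rats, against 119, 227, 145, 147 and 121 in LR rats (log2 difference -0.99 ± 0.27, adjusted p = 0.0137). Neither gene overlapped between lines. Crh, corticotropin-releasing hormone, differed by 0.55 (adjusted p = 0.235), Sst by 0.26 (0.228), Penk by -0.023 (0.953) and Npy, neuropeptide Y, by 0.02 (0.945), and none of these was called.

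Markers of tissue next to the amygdala were read for Pmch in particular. Of 22 measured hypothalamic genes, 2 were higher (Gal and Avp) and 1 was lower (Pmch), and the median log2 difference was -0.08. Hcrt, the orexin gene of lateral hypothalamic neurons that lie among those of Pmch, ranged from 38.5 to 79.2 in HR rats, against 32.3 to 81.6 in LR rats, around the median row of the table (64.4), with a log2 difference of -0.061 ± 0.34 (adjusted p = 0.946). Oxt, oxytocin, ranged from 97.9 to 116 in HR rats, against 68.9 to 108 in LR rats and differed by 0.30, Trh by 0.12, Pomc by 0.47 and Agrp by -0.77, and none of them was called. Agrp, a feeding peptide of the arcuate nucleus, was called without array 36 (-1.06, adjusted p = 0.00516). The transcription factor genes of the list, Otp, Nkx2-2, Fezf1, Six3, Six6, Lhx9, Rax, Tbx3, Hmx2 and Hmx3, differed by -0.33 (Lhx9) to 0.24 (Six6), with none called. The median log2 level of the hypothalamic list over each array's median row ranged from -0.30 to 0.054 over the HR arrays and from -0.068 to 0.35 over the LR arrays. The part of hypothalamic tissue in the Pmch difference was not tested. Of 10 thalamic genes 2 were lower, Lhx2 (-0.68 ± 0.20) and Synpo2 (-0.62 ± 0.20), and of 13 striatal genes 0 were called (2 at an unadjusted p under 0.05 in limma).

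Gal, the galanin peptide gene, was higher in HR rats, with intensities of 3046, 3048, 3191, 3957 and 2419.9 in HR rats, against 2048, 2036, 1985, 2225 and 1857 in LR rats. All HR arrays lay above all LR arrays, and the log2 difference was 0.61 ± 0.13 (adjusted p = 0.00215). Avp, vasopressin, a peptide that amygdala neurons also make, gave 227, 204, 267, 176 and 217 in HR rats, against 82.2, 219, 145, 164 and 109 in LR rats. Its lowest value was array 36 and the lines overlapped; without that array the difference was 0.49 with an adjusted p of 0.0969, against 0.67 and 0.0263 with it. Over all 41 measured neuropeptide and receptor genes, 4 were higher (9.76%) and 4 were lower (9.76%). Beside Gal and Avp, the higher ones were Cckar, a cholecystokinin receptor (0.96 ± 0.25), and Oxtr, the oxytocin receptor (0.79, adjusted p = 0.0457). Beside Pmch, the lower ones were Grp, gastrin-releasing peptide (-0.56 ± 0.13), Ntsr2, a neurotensin receptor of astrocytes (-0.89 ± 0.23), and Rln3, relaxin 3 (-1.21, adjusted p = 0.0127).

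Markers of the choroid plexus and the ependyma moved in both directions. Of 18 measured genes, 3 were lower and 1 was higher in HR rats, with a median of -0.015. Folr1, a folate receptor of choroid epithelium, gave 444, 352, 379.8, 758 and 276 in HR rats, against 839, 749.9, 704, 801 and 802 in LR rats, and HR array 34 lay within the LR range. Its log2 difference was -0.90 ± 0.20 (adjusted p = 0.00311). Prr32 ranged from 187 to 278 in HR rats, against 279 to 414 in LR rats (-0.67 ± 0.20) and Rarres2, the adipokine chemerin, from 997 to 1726 in HR rats, against 1638 to 1920.4 in LR rats (-0.54 ± 0.17). Without array 36, Prr32 had an adjusted p of 0.0517. Ttr, transthyretin, the most abundant choroid plexus transcript, ranged from 34856 to 47631 in HR rats, against 36292 to 60164 in LR rats and was not called (-0.18, adjusted p = 0.456). Drc12, a cilium component, was the higher gene (0.74 ± 0.22). HR array 34 was the highest HR array for Folr1, Prr32, Rarres2, Kcnj13, Cfap126, Aqp1, Tmem212, Dynlrb2, Rsph1 and Drc12. It was not the highest for the rest of the list, Ttr, Kl, Foxj1, Mia, Steap1, Slc13a4, Sostdc1 and Kcne2. For Sostdc1 and Kcne2 it was the lowest HR array. The median log2 level of the list over each array's median row ranged from 0.24 to 0.83 over the HR arrays and from 0.34 to 0.73 over the LR arrays, and the part of choroid plexus tissue in the other differences was not tested.

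Of 14 blood genes, 1 was higher (Hbe2, an embryonic beta-like globin, 0.87 ± 0.16) and 1 was lower (Hba-a3). Hbe2 ranged from 118 to 160.3 in HR rats, against 67.9 to 85.1 in LR rats, without overlap. Hba-a2 differed by -0.27, Hbb-b1 by 0.017, Hbb-bs by -0.35, Alas2, the first enzyme of heme synthesis in red cells, by -0.26 and Ahsp, the alpha-globin chaperone, by 0.062, with none of the 5 called. Of 15 genes of meninges and fibroblasts, 1 was lower, Ptgds, a prostaglandin synthase of the meninges and of oligodendrocytes, which gave 1218, 1302, 1332, 2106 and 1526 in HR rats, against 2596, 3148, 3097, 3134 and 2753 in LR rats. The groups were well apart, with a log2 difference of -1.001 ± 0.20 (adjusted p = 0.00119). Of 16 microglial genes, 2 were lower, Ctss (-0.64 ± 0.16), a lysosomal protease, and C1qa (-0.48 ± 0.15), a complement component that tags synapses. Of 14 endothelial and mural genes, 0 were called (1 at an unadjusted p under 0.05).

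The list with the largest share of lower calls was that of astrocytes. Of 23 measured markers, 7 were lower (30.4%, against 4.15% of all rows) and 1 was higher, and 7 were lower without array 36 as well; the median log2 difference was -0.25, and 19 of the 23 were negative. This list had shown the same direction in earlier results of these data, so the count is a description. S100b, a calcium-binding protein that astrocytes secrete, gave 931, 1039, 1077, 1147 and 793 in HR rats, against 2135, 2577, 2425, 2489 and 2251 in LR rats. The highest HR array was far below the lowest LR array, and the log2 difference was -1.26 ± 0.15 (adjusted p = 7.61e-07). Ndrg2, a differentiation gene of mature astrocytes, gave 111, 87.2, 74.3, 83.5 and 75.99 in HR rats, against 122, 248, 149, 187 and 175 in LR rats, and Gjb6, the gap junction protein connexin 30, gave 62.5, 77.4, 76.5, 73.5 and 53.2 in HR rats, against 122.6, 116, 115, 154 and 148 in LR rats. Both were without overlap, with log2 differences of -1.001 ± 0.24 and -0.94 ± 0.23 (adjusted p = 0.00471 and 0.00713).

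The other lower astrocyte genes were Ntsr2 (-0.89 ± 0.23), Acsl6, a fatty acid activating enzyme (-0.56 ± 0.17), Clu, the secreted chaperone clusterin (-0.50, adjusted p = 0.0386), and Aldoc, the brain aldolase (-0.46 ± 0.15). Apoe, the lipid carrier that astrocytes secrete, was the higher one (0.39, adjusted p = 0.0486). Gfap, the intermediate filament gene that marks astrocytes, differed by -0.27 (adjusted p = 0.651) at a mean log2 intensity of 5.71 in HR rats and 5.98 in LR rats, at or below the median row. The median log2 level of the list over each array's median row ranged from 0.12 to 0.33 over the HR arrays and from 0.67 to 1.12 over the LR arrays. The ranges of the lines did not overlap. Other lists without such overlap included growth factors, oxidative stress, olfactory and vomeronasal receptors, and the mitochondrial and cytosolic ribosomes. Among 25 oligodendrocyte and myelin genes, 3 were lower (Qdpr -0.70 ± 0.16, Aspa -0.79 ± 0.24 and Gpr37 -0.68 ± 0.21) and the median was -0.22. Without array 36 Gpr37 was not called (adjusted p = 0.0664, limma). For Aspa, array 36 gave 140, inside the HR range of 86.8 to 156. Of 10 genes of oligodendrocyte precursors 0 were called, with 2 at an unadjusted p under 0.05.

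At synapses, 3 of 27 genes of vesicle release were lower in HR rats: Cplx2, Vamp1 and Syn1, a vesicle-clustering synapsin (-0.72 ± 0.23, adjusted p = 0.0496; 0.0568 without array 36). The median of that list was 0.019. Of 31 genes of glutamate signalling, Gria2, the AMPA receptor subunit that limits calcium entry, was lower, with 87.1, 76.01, 45.4, 73.2 and 71.1 in HR rats, against 180, 149, 147, 156 and 138 in LR rats. Grik3, a kainate receptor subunit, was higher, with 72.8, 102, 96.01, 66.8 and 106 in HR rats, against 56.4, 35.3, 36.8, 35.9 and 37.8 in LR rats. Neither overlapped, and the log2 differences were -1.15 ± 0.22 and 1.13 ± 0.22 (adjusted p = 0.000442 and 0.000787). Grin1, the obligate NMDA receptor subunit, was higher by 0.73 ± 0.22 (adjusted p = 0.0319), but it ranged from 52.4 to 86.3 in HR rats, against 27.6 to 47.2 in LR rats, with every LR value below the median row, and without array 36 its adjusted p was 0.0851. Of 15 GABA genes and 21 genes of serotonin and other monoamines, 0 and 0 were called, with 1 and 2 at an unadjusted p under 0.05 in limma.

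Of 30 growth factor and receptor genes, 3 were higher in HR rats and 0 lower (3 at an unadjusted p under 0.05 in all). Tgfa, a ligand of the epidermal growth factor receptor, gave 107, 113, 106, 124 and 90.96 in HR rats, against 39.8, 55.7, 56.05, 55.6 and 51.2 in LR rats, with no overlap (log2 difference 1.07 ± 0.22, adjusted p = 0.00113). Fgf10 differed by 0.88 ± 0.23, and Fgfr2, a fibroblast growth factor receptor, by 0.78 ± 0.20, with a second Fgfr2 row at -0.12 that was not called. Hlf, a clock-output transcription factor, was higher in HR rats (622, 511, 682, 439.5 and 598 in HR rats, against 126, 334, 252, 202 and 178 in LR rats; log2 difference 1.45 ± 0.29, adjusted p = 0.00103), although a second row gave -0.31 and was not called, and without array 36 that row was called lower (-0.68, adjusted p = 0.0445). Ciart, a clock repressor, was lower (-0.67 ± 0.18). Of 20 genes of glucocorticoid signalling and stress peptides, 1 was lower, Hsp90aa1, a chaperone of the glucocorticoid receptor (-0.73 ± 0.17, adjusted p = 0.00348). Of 22 activity-regulated genes, 1 was lower, Egr3 (-0.58 ± 0.18). In the list of 31 progenitor and neurogenesis genes, Sox2 and Gap43, a growth cone protein (-0.68 ± 0.17), were lower and none was higher.

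Chromatin genes were called in both directions. Of 37 measured, Hdac4 was higher (0.71 ± 0.19) and Hdac5 (-0.44 ± 0.14), Mbd3 (-0.81 ± 0.25) and the de novo DNA methyltransferase gene Dnmt3b (-0.85 ± 0.24) were lower. The lines overlapped for each of these genes. Array 36 lay inside the HR range for Hdac5 (1282), Mbd3 (89.9) and Dnmt3b (47.3). Hdac4 and Hdac5 are related histone deacetylases that shuttle between nucleus and cytoplasm. A second Dnmt3b row gave -0.60 and was not called. The share of lower calls in this list was 8.11%, against 4.15% of all rows. Of the 37 genes, 23 lay above the median row, where 7.27% of all rows were lower, so this share was near its background.

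The lists of mitochondrial and ribosomal genes had negative medians, which earlier results of these data had already shown, and nearly all of their genes lay above the median row. Of 69 mitochondrial ribosome genes, 7 were lower and 0 were higher, and 56 were negative, with a median of -0.18. Among the 69 genes, 65 lay above the median row, where 7.27% of all rows were lower and the median was -0.055. Whether this list went beyond that background was not tested. Mrpl42 gave 779.7, 719.9, 596, 739 and 763 in HR rats, against 1333, 1395, 1472, 1521 and 1389 in LR rats, a clear separation (log2 difference -0.99 ± 0.13, adjusted p = 4.21e-06). Mrpl50 (-0.97 ± 0.20), Mrps23 (-0.63 ± 0.14), Mrps33 (-0.57 ± 0.12) and Mrpl43 (-0.50 ± 0.13) were also lower without overlap. Of 142 cytosolic ribosome genes, 11 were lower (7.75%) and 3 were higher, with a median of -0.16. Of the 142 genes 135 lay above the median row, where 7.27% of all rows were lower, so the share of lower calls was near its background. Rps3a gave 2490.2, 2004, 1949, 1988 and 2250.1 in HR rats, against 3931, 3400.4, 3727, 3404 and 3320.3 in LR rats (log2 difference -0.74 ± 0.12, adjusted p = 0.000112). Many ribosomal genes have near-identical pseudogenes, so single rows of this list are uncertain. The median log2 level of the list above each array's median row ranged from 6.16 to 6.38 over the HR arrays and from 6.40 to 6.66 over the LR arrays, without overlap.

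Of 78 genes of oxidative phosphorylation, 7 were lower (8.97%) and 3 higher, with a median of -0.12. Of these, 75 lay above the median row, where 7.27% of all rows were lower and the median was -0.055, so this share too was near its background. Ndufv2, a complex I subunit, ranged from 279 to 449 in HR rats, against 615 to 762 in LR rats (-0.79 ± 0.18), and Atp5f1b, the catalytic subunit of ATP synthase, from 979.5 to 1577 in HR rats, against 1535 to 1938 in LR rats (-0.53 ± 0.15). Atp5mc1, a subunit of the rotor ring of ATP synthase, went the other way, with 20534, 24243, 25831, 27966 and 23217 in HR rats, against 17681, 17449, 17040, 15087 and 18198 in LR rats. All HR arrays lay above all LR arrays (0.51 ± 0.12, adjusted p = 0.00446), and its copy Atp5mc1l2 was higher as well (1.12 ± 0.16). Of 47 genes of glycolysis and the citric acid cycle, 5 were lower (10.6%) and 0 higher. Among the 47 genes, 33 lay above the median row, where 7.27% of all rows were lower. The lower ones were Tpi1 (-0.83 ± 0.20), Sdhd (-0.56 ± 0.14), Dld (-0.96 ± 0.26), Idh3b (-0.72 ± 0.22, limma adjusted p = 0.0689 without array 36) and Aldoc. For Dld, array 36 gave 126, inside the HR range of 61.3 to 161, against 212 to 241 on LR arrays 37 to 40. Tpi1, triose phosphate isomerase, ranged from 308 to 540 in HR rats, against 676 to 723 in LR rats. Of 32 genes of oxidative stress and detoxification, Prdx1, a peroxide-reducing enzyme (-0.55 ± 0.12), was lower. So were a pair of glutathione transferases, Gstt2 (-1.05 ± 0.28) and Gsta1 (-0.63, limma adjusted p = 0.0607 without array 36). Gstt2 ranged from 25.5 to 45.8 in HR rats, against 44.9, 57.1, 53.3, 60.2 and 215 in LR rats. Its lines overlapped, and only LR array 40 lay above the median row. Mt3, a zinc-binding metallothionein of the brain (0.40 ± 0.12), was higher.

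Olfactory and vomeronasal receptors, which are known from the nose, had the largest share of higher calls. They had been listed as a control, as had the kallikreins and the testis and germ cell genes. Of 340 olfactory and vomeronasal receptor genes, 35 were higher in HR rats (10.3%, against 5.47% of all rows) and 1 was lower, and the median log2 difference was 0.19; without array 36 the counts were 35 and 7. Of the 340 genes, 86 lay above the median row of the table, so most of this list lay in the dimmer part of the table. Differences were positive for 238 of the 340. The median log2 level of the list over each array's median row was -0.37 to -0.28 on the HR arrays. On the LR arrays it was -0.50 to -0.39, without overlap. The control list itself was thus shifted between the groups, and the cause was not tested. The brightest separation among those named was Or2t45, with 1064, 1582, 1345, 1062 and 1552 in HR rats, against 367, 631, 409, 452 and 481 in LR rats (log2 difference 1.4999 ± 0.25, adjusted p = 8.74e-05). Or9s23 (1.68 ± 0.27), Or5ac23b (1.59 ± 0.28), Or2y1c (1.51 ± 0.24) and Or5d41b (1.44 ± 0.28) were higher without overlap too. Among 49 genes of the major histocompatibility complex, 3 were higher: RT1-O1, RT1-EC2 (1.05 ± 0.28) and RT1-CE15 (0.57 ± 0.15), a set of class I genes that are close copies of each other, and a second RT1-CE15 row gave 0.059. Klk7, a skin kallikrein, was higher (1.62 ± 0.27), with a second row at 0.64 that was not called. Of 47 testis and germ cell genes 4 were higher and 2 were lower, among them Prm3, a protamine (1.12 ± 0.26), and Tsga10 (-1.16 ± 0.35). For Tsga10, array 36 gave 29.5, inside the HR range of 28.2 to 55.05, against 82.4 to 148 on LR arrays 37 to 40. Against array 36 alone the Tsga10 difference was 0.35.

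**Figure D3:**
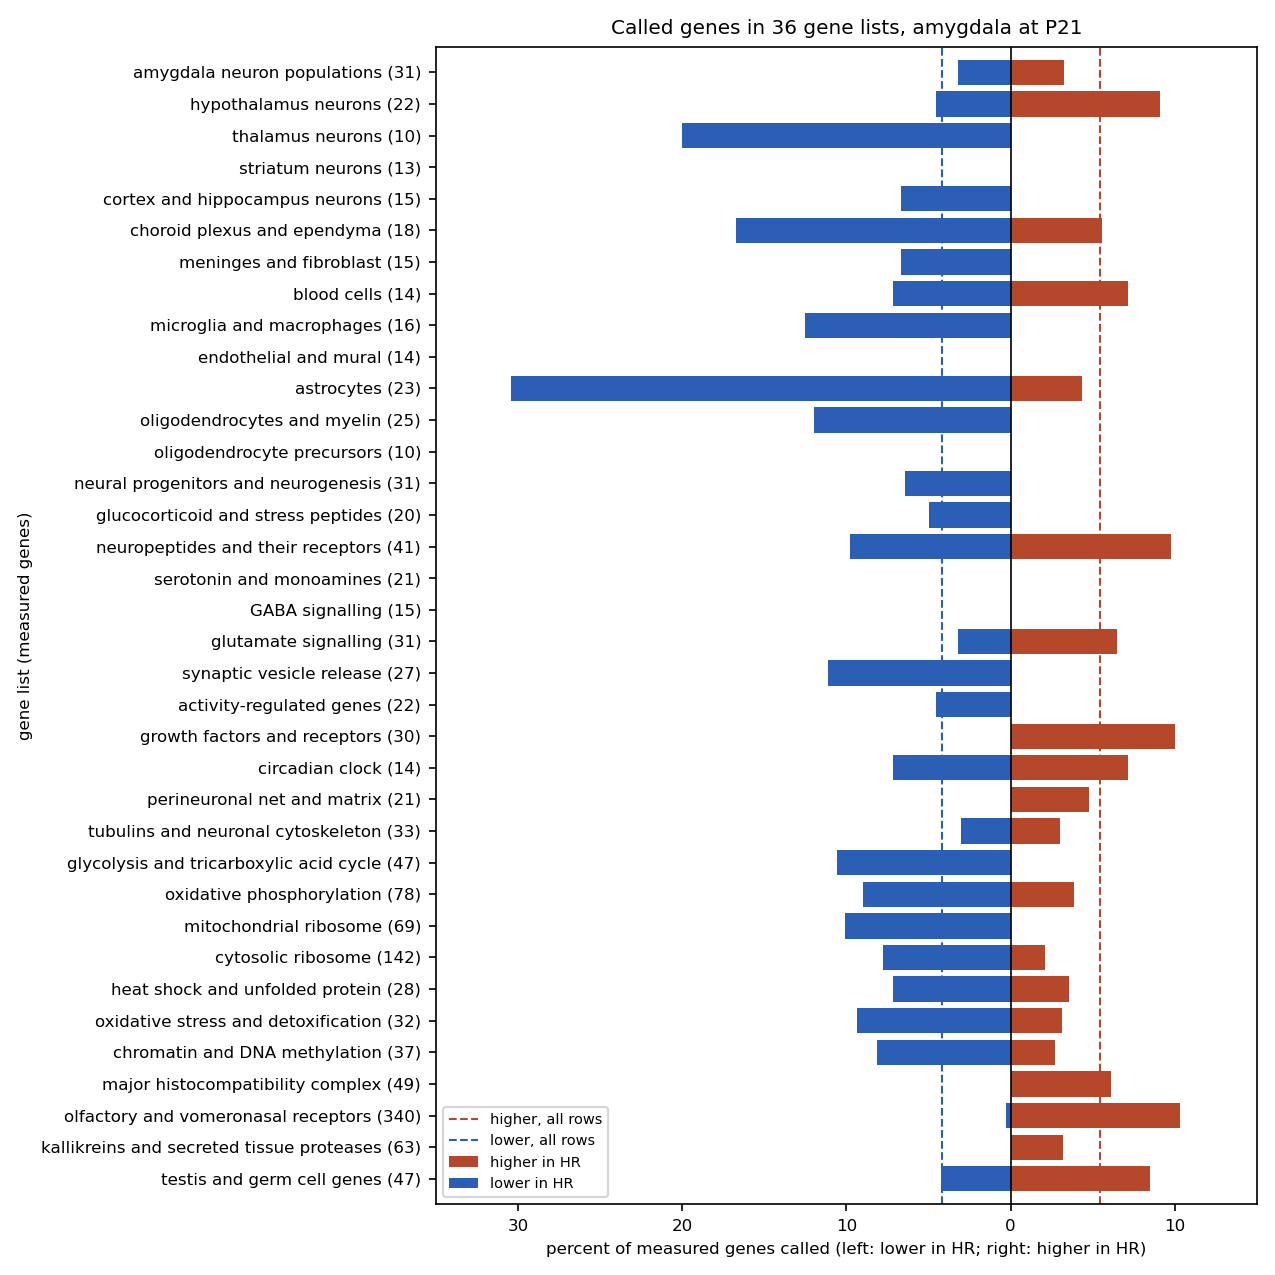
Share of the measured genes of each of 36 lists that were called lower in HR rats (bars to the left, percent) or higher in HR rats (bars to the right, percent); the number of measured genes stands in brackets, and dashed lines give the shares over all rows, 4.15% lower and 5.47% higher. The astrocyte list reaches furthest to the left with 30.4%, and the olfactory and vomeronasal receptors furthest to the right with 10.3%; lists of 10 to 20 genes move in steps of several percent per gene.

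The same lines were compared at P7 and P14 in the same fit, which shows how far the P21 differences were already there. HR and LR rats differed at 1572 rows at P7 (8.97%), with 2.5% of all rows higher and 6.47% lower, and at 967 rows at P14 (5.52%), with 3.28% higher and 2.24% lower. Of the P21 calls, 230 were called with the same sign at P7 (13.6% of the P21 calls and 14.6% of the P7 calls) and 71 with the opposite sign. With P14 they shared 287 (17% of the P21 calls and 29.7% of the P14 calls), and 40 were opposite. The ages share no arrays, but some sample codes in the column names recur between ages, and some codes within a line at P21 share a prefix; the sources used here do not say whether these mark animals or litters. At all 3 ages 84 rows were called, 75 of them with the same sign, 23 higher and 52 lower in HR rats, and without array 36 in the P21 groups 21 and 46 of these stayed called at P21.

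Genes lower in HR rats at every age included Nipsnap1, Sox2, Hba-a3 and S100b. The log2 differences of Sox2 were -1.49 at P7, -1.45 at P14 and -1.97 at P21, those of S100b -1.19 at P7, -1.39 at P14 and -1.26 at P21, those of Hba-a3 -1.28 at P7, -1.70 at P14 and -2.12 at P21 and those of Nipsnap1 -1.67 at P7, -1.36 at P14 and -2.32 at P21. For Pmch the values were -2.82 at P7, -1.07 at P14 and -3.08 at P21. The intensity of Pmch was 214 ± 37.2 in HR rats and 1504 ± 220.2 in LR rats at P7, 197 ± 46.7 in HR rats and 406 ± 41.4 in LR rats at P14, and 82.9 ± 33.7 in HR rats and 665 ± 80.4 in LR rats at P21 (SD, n = 5 each). The P21 minus P14 contrast of Pmch was called (-2.01, adjusted p = 0.000197) and that with P7 was not (adjusted p = 0.674). Folr1 had its smallest difference at P21 (-2.68 at P7, -2.49 at P14 and -0.90 at P21), and both of its age contrasts were called (adjusted p = 0.00156 with P14 and 0.000114 with P7). Stmn4, a microtubule regulator of neurons, had its largest difference at P7 (-1.78 at P7, -0.73 at P14 and -0.90 at P21). Echs1, an enzyme of fatty acid oxidation, and C18h18orf32, chosen after their values were seen, gave -1.12 at P7, -1.04 at P14 and -1.0003 at P21, and -0.72 at P7, -0.62 at P14 and -1.08 at P21.

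Gal was higher in HR rats at all 3 ages, with log2 differences of 0.67 at P7, 0.74 at P14 and 0.61 at P21. Its intensity was 2389 ± 234 in HR rats and 1505 ± 196 in LR rats at P7, 3340.4 ± 225 in HR rats and 1995 ± 159 in LR rats at P14, and 3132 ± 549 in HR rats and 2030.2 ± 133 in LR rats at P21 (SD, n = 5 each). Neither age contrast of Gal was called (adjusted p = 0.767 with P14 and 0.896 with P7). The other named ones, chosen after their values were seen, were the pseudogenes Foxk2-ps1 (0.61 at P7, 0.69 at P14 and 1.35 at P21) and Ddx21-ps11 (1.18 at P7, 0.99 at P14 and 1.26 at P21), the ribosomal copy Rplp2l1 (0.48 at P7, 0.68 at P14 and 0.71 at P21) and Fam186a (0.67 at P7, 0.79 at P14 and 0.67 at P21), of which Fam186a was not called at P21 without array 36.

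Whether the line difference itself changed with age was tested by limma contrasts. The line difference at P21 minus that at P14 was called on 792 rows (4.52%), 368 higher (2.1%) and 424 lower (2.42%), and the line difference at P21 minus that at P7 on 1308 rows (7.47%), 844 higher (4.82%) and 464 lower (2.65%). Without array 36 the first count was 1084. At 270 of the P21 calls, 167 higher and 103 lower in HR rats, the P21 difference was further in its direction than at both younger ages with both contrasts called, and 256 of these were so without array 36; being taken from the P21 calls tilts these rows toward P21, so the counts are a description. With blocks of array numbers as a term, which leaves array 36 as the LR array beside the HR arrays at P21, 11 of them were. Each age lay in its own run of array numbers. The blocks were cut after arrays 36 and 48, inside the LR groups at P21 and at P14, and so did not follow the ages. A call lost under that term therefore cannot be assigned to age, line or array number.

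The genes with the largest P21 differences were chosen on the P21 arrays, which tilts any contrast with a younger age toward P21, so their values by age are a description. Of the 15 highest in HR rats, 4 were called at P14 and 0 at P7. Potem gave 0.21 at P7, 1.501 at P14 and 3.23 at P21. Klk1c9 gave 0.25 at P7, -0.73 at P14 and 2.24 at P21, Clec4m 0.29 at P7, -0.12 at P14 and 2.18 at P21, Chi3l4 -0.40 at P7, 0.74 at P14 and 2.09 at P21 and Mettl8 0.19 at P7, 0.32 at P14 and 1.84 at P21. Of the 15 lowest in HR rats, 9 were called at P14 and 5 at P7, though not all in the same direction. Cplx2 gave 0.15 at P7, -1.004 at P14 and -1.58 at P21. Hprt1 gave -0.66 at P7, 0.16 at P14 and -1.45 at P21 and Vamp1 0.0082 at P7, -0.37 at P14 and -1.52 at P21.

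A few genes turned their direction between P14 and P21. Gnal was higher in HR rats at P14 (1.23, adjusted p = 0.0126) and lower at P21 (-1.38), a contrast of -2.61 ± 0.43 (adjusted p = 0.000685). Zfp319 and Or1o2e turned too (2.25 and 1.83 at P14), but these are genes in which array 36 lay at or near the HR level. Mdk, the growth factor midkine, was lower in HR rats at P7 and P14 and higher at P21 (-0.88 at P7, -0.87 at P14 and 0.50 at P21). At P21 its intensity was 8263, 8816, 8350, 13738 and 9936 in HR rats, against 6449, 7511, 7309.5, 6672 and 6198 in LR rats, with no overlap, and the contrast with P14 was 1.37 (adjusted p = 0.000197). Bsg, the membrane protein basigin, gave -1.10 at P7, -1.08 at P14 and 0.23 at P21 and was not called at P21. Mdk and Bsg were named for their small p in the limma contrast of P21 with P14, so its call was set by the choice.

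Several cytoskeletal and chaperone genes were lower in HR rats at P7 and were not called on the same row at P21. Tubb2b, a tubulin of growing neurons, gave -3.14 at P7, -0.54 at P14 and -0.29 at P21, and its intensity at P21 was 44.2, 33.6, 29.4, 47.4 and 42.05 in HR rats, against 59.8, 45.8, 47.5, 47.1 and 39.5 in LR rats. Those values overlapped and lay below the median row. Hspa8, the constitutive heat shock cognate, gave -3.05 at P7, -0.45 at P14 and -0.43 at P21, Ahsa1, a co-chaperone of Hsp90, -2.13 at P7, -0.35 at P14 and -0.24 at P21, Actg1, a cytoplasmic actin, -2.67 at P7, -0.19 at P14 and -0.15 at P21, and Tubb3, a neuronal tubulin, -2.15 at P7, -0.78 at P14 and 0.44 at P21. A second Ahsa1 row was called at P21 (-0.53) but not without array 36 (adjusted p = 0.0831). Tubb2b, Hspa8, Ahsa1, Actg1, Tubb3 and Mrpl43 were named for their small p in the limma contrast of P21 with P7. That this contrast was called was therefore set by the choice. Its values for the first 5 of them lay between 1.89 (Ahsa1) and 2.85 (Tubb2b). Mrpl43 was lower at every age (-2.18 at P7, -1.69 at P14 and -0.50 at P21). In the list of 33 tubulin and cytoskeleton genes, 16 were lower at P7, 7 at P14 and 1 at P21, with medians of -0.62, -0.20 and -0.13.

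**Figure D4:**
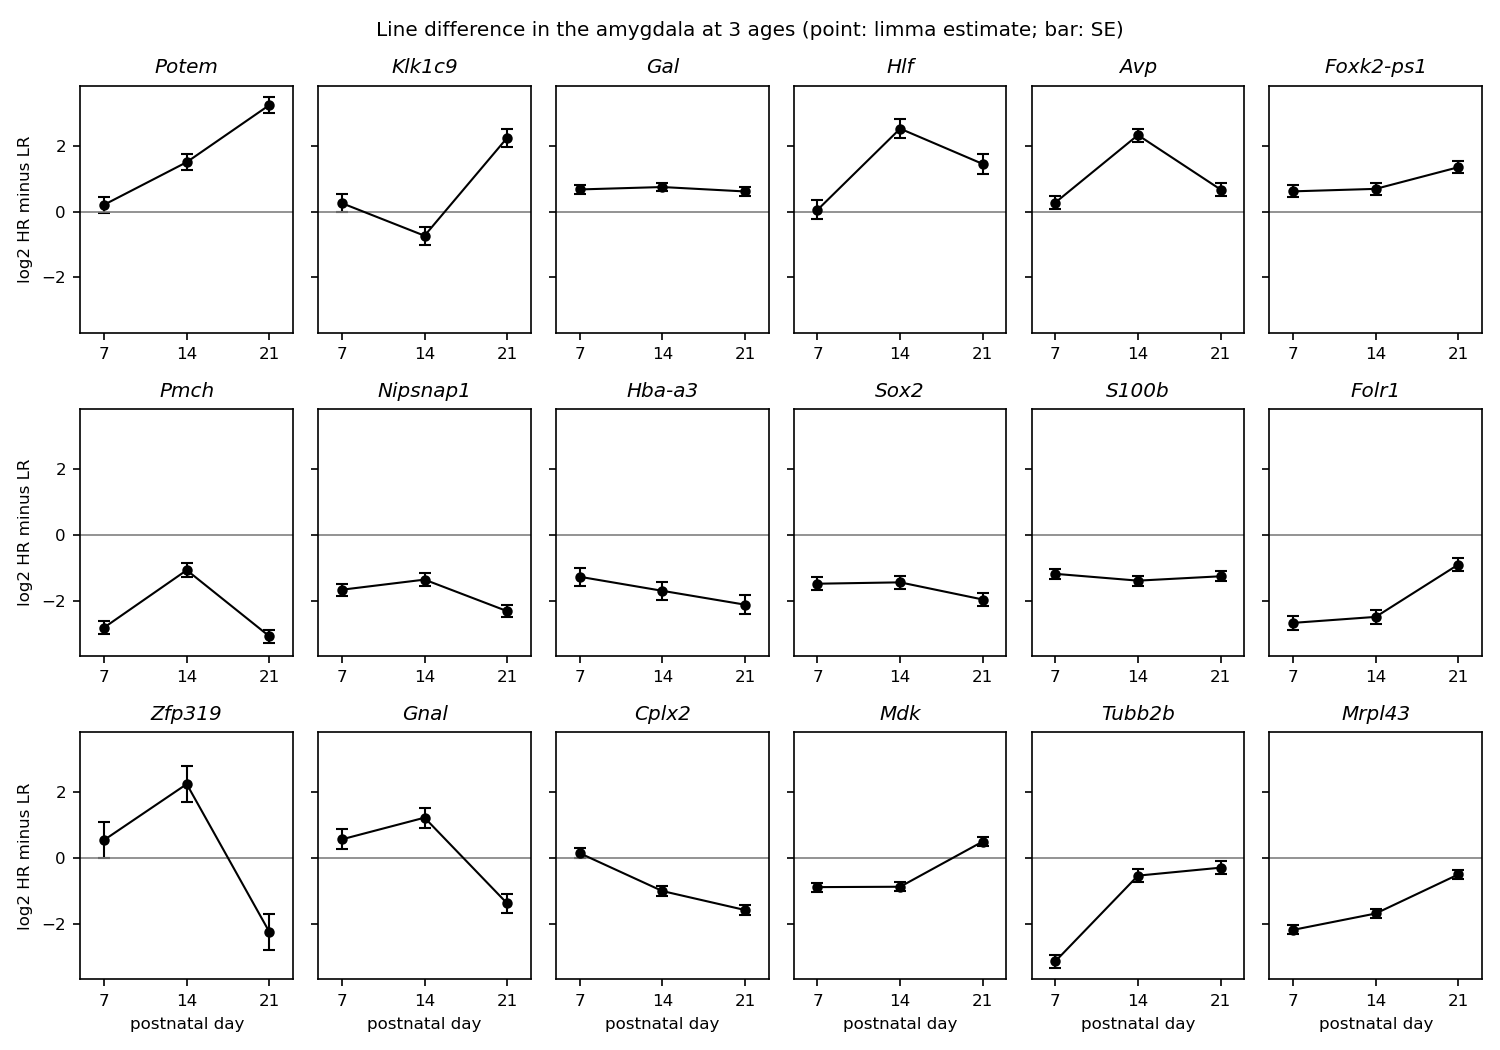
Line difference (log2 HR minus LR, vertical axis) of 18 genes in the amygdala at postnatal days 7, 14 and 21 (horizontal axis); points are limma estimates, bars their SE, with 5 arrays per line and age, and the grey line marks no difference. Sox2, S100b, Hba-a3 and Nipsnap1 stay below 0 at each age and Gal above it, Potem and Klk1c9 are furthest from 0 at P21, Gnal and Zfp319 lie above 0 at P14 and below it at P21, and Tubb2b approaches 0 from -3.14 at P7.

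The prefrontal cortex at P21 was set beside the amygdala without comparing levels, since the authors normalized the regions separately. No row was called there: 0 of 18564 (0%) passed in limma with Benjamini-Hochberg adjustment, the smallest adjusted p was 0.114, and 1458 rows had an unadjusted p under 0.05. Over all rows the median SE of the line difference was 0.241 for the amygdala, against 0.263 for the prefrontal cortex, but on the rows called in the amygdala it was 0.221 for the amygdala, against 0.368 for the prefrontal cortex. Potem had an SE of 0.24 for the amygdala, against 0.88 for the prefrontal cortex, and S100b 0.15 for the amygdala, against 0.60 for the prefrontal cortex, so a difference of the amygdala's size was harder to call there. Of the 1686 amygdala calls, 1633 had a prefrontal row, and 1245 of these had the same sign there. The share of same signs over all rows was not computed, so this count has no background. Sample codes recur between the regions, so the same animals may stand behind both and the shared signs are not independent. Among the 15 genes highest in HR rats, 15 had the same sign in the prefrontal cortex, and among the 14 lowest that had a prefrontal row, 7 did. For most of the 15 a single HR array was the highest of the prefrontal arrays, as listed below, so their signs are no independent count.

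Among the genes with the largest amygdala differences, a pair separated the lines in the prefrontal cortex as completely as in the amygdala. The share of prefrontal rows without overlap was not computed, so this pair has no background. Hba-a3 gave 116, 130.2, 260.2, 370 and 53.5 in HR rats, against 742, 741, 984, 1429 and 1019.6 in LR rats, and Sox2 gave 161, 856, 226, 146 and 465 in HR rats, against 1787, 1917, 1429.5, 1968 and 1023 in LR rats. For both, every HR array was below every LR array in either region. The log2 differences in the prefrontal cortex were -2.66 ± 0.56 and -2.44 ± 0.45, with adjusted p-values of 0.182 and 0.114. Mrpl43 and Ptgds, chosen after their values were seen, differed there by -2.15 and -1.11 (adjusted p = 0.434 and 0.437).

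Pmch did not separate the lines in the prefrontal cortex. It gave 53.2, 52.3, 47.1, 67.4 and 59.5 in HR rats, against 60.8, 79.8, 49.1, 71.4 and 94.2 in LR rats, values that overlapped (log2 difference -0.32, adjusted p = 0.849). Klk1c9 gave 707, 393, 597, 716 and 374 in HR rats, against 618, 321, 738, 209 and 514 in LR rats, also overlapping. For Potem the prefrontal values were 1283, 9603, 134, 151 and 107 in HR rats, against 187, 90.6, 107, 310.1 and 124 in LR rats. Only HR arrays 1 and 2 of the prefrontal table lay above the LR range, and HR array 2 was also the highest of the 10 prefrontal arrays for Tex35, Clec4m, Chi3l4, Krtap10l1, Krtap10-10l1, Taar7h, Mettl8, Tmem263, Mall, Senp17, Tafa1, Cplx2 and Morf4l1. The difference between the regions in the line effect was not tested.

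**Figure D5:**
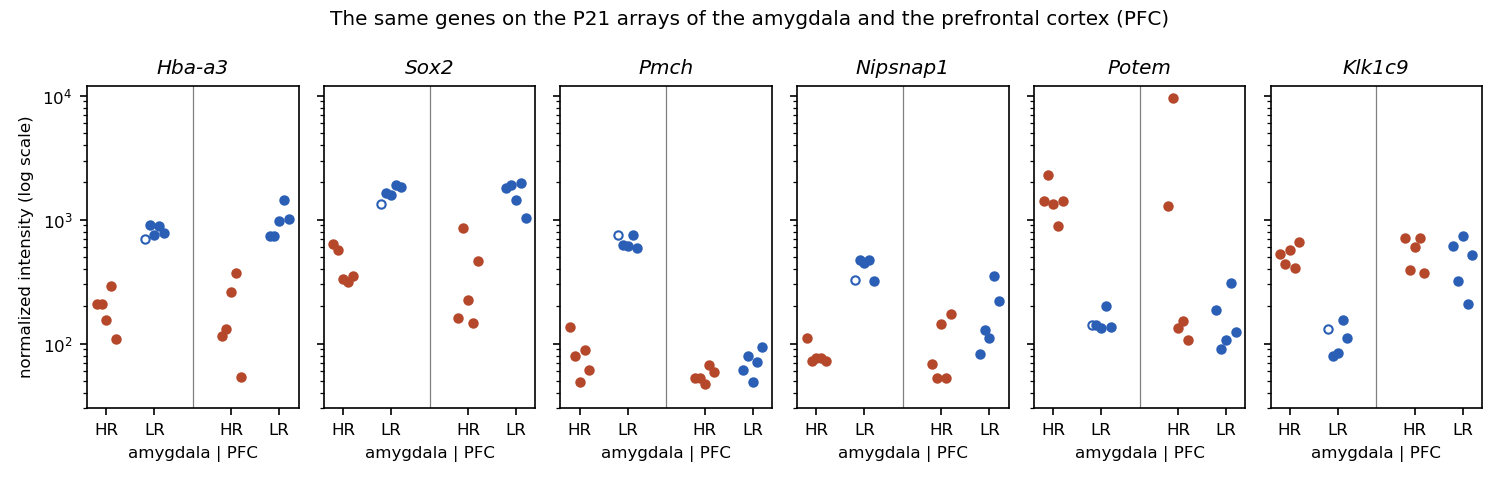
Normalized intensity (vertical axis, log scale) of 6 genes on the P21 arrays of the amygdala (left of the grey line) and the prefrontal cortex (right of it), with HR left of LR in each; points are arrays and the open circle is LR array 36. Hba-a3 and Sox2 separate the lines in both regions, Pmch and Klk1c9 in the amygdala, and Potem in the prefrontal cortex has HR values from 107 to 9603. Levels are not comparable between regions.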

How the data were processed

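RNA of amygdala and prefrontal cortex was labelled as double-stranded cDNA and read on single-colour NimbleGen arrays, per the labels' protocols. The authors deposited normalized intensity per transcript row on a linear scale, made by RMA per the submitters' processing notes and separately for each region. Other upstream steps are not given in the sources used here. Blank lines of the amygdala table (1046) were left out, log2 was taken of the deposited intensity, and limma 3.58.1 in R 4.3.3 was fitted over 30 amygdala arrays with a mean per line and age. P-values were adjusted by Benjamini-Hochberg over 17519 rows, and the fit was tested on simulated data. Gene names came from the files, updated by gene ID or accession on 13441 rows through a RefSeq table (GRCr8). Named genes were the 15 largest called differences in each direction with a mean above the median row in the higher line, up to 5 called genes of smallest p per list, the 8 of smallest p per age contrast, and all genes of the hypothalamus, choroid plexus and blood lists. Lists used the brightest row of a gene. Members and lists were chosen with earlier results of these data known, and a few genes reached by the naming rule are left out.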

Additional observations from a re-analysis of the deposited data

Results flagged for a closer look

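In 6 of the 60 groups tested (30 genes in each line at P21), 1 array lay far from its 4 neighbours by Dixon's criterion, where the gap to the nearest array divided by the range exceeds 0.71 for 5 arrays. Chance gives about 1 such group in 20, and 3 of the 6 came from LR array 36. The ratio was 0.922 for Sec61g-ps1, 0.767 for Tmem263 and 0.737 for Zfp319 on LR array 36, which lay below the other LR arrays for Sec61g-ps1 and Zfp319 and above them for Tmem263. It was 0.830 for Potem on LR array 39, 0.807 for Tafa1 on HR array 35 and 0.835 for Nipsnap1 on HR array 31, each of which was the highest of its group. For Sec61g-ps1, array 36 lay among the HR arrays.

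The line difference at P21 differed from that at a younger age, by a limma contrast with an adjusted p under 0.05, for the genes that follow, with values on the log2 scale. Among the genes highest in HR rats at P21, the P21 minus P14 contrast was Potem 1.73, Klk1c9 2.98, Tex35 1.91, Clec4m 2.30, Chi3l4 1.35, Iftap 1.51, Krtap10l1 1.99, Taar7h 1.92, RT1-O1 2.53, Mettl8 1.52, Tmem263 1.42 and Mall 1.67, and the P21 minus P7 contrast was Potem 3.03, Klk1c9 1.99, Tex35 2.40, Clec4m 1.89, Chi3l4 2.49, Iftap 1.55, Krtap10l1 1.87, Mettl8 1.64, Krtap10-10l1 1.81, Tmem263 1.31, Mall 1.73, Senp17 1.74 and Tafa1 1.33. These genes were chosen for their P21 difference on the same arrays, which tilts the contrasts in this direction, so their signs are no finding. Among the genes lowest in HR rats, the P21 minus P14 contrast was Pmch -2.01, Nipsnap1 -0.96, Zfp319 -4.49, Stk10 -2.48, Sec61g-ps1 -2.83, Or1o2e -3.43, Grifin -1.54, Vamp1 -1.15, Hprt1 -1.61, Akna -1.59 and Gnal -2.61, and the P21 minus P7 contrast was Zfp319 -2.79, Stk10 -2.02, Sec61g-ps1 -2.51, Or1o2e -1.91, Cplx2 -1.73, Grifin -1.32, Vamp1 -1.53, Akna -1.67 and Gnal -1.95. The same holds for these. For Zfp319, Sec61g-ps1, Or1o2e and Akna, array 36 lay inside or next to the HR range.

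Genes chosen for the smallest p in the contrasts between ages gave P21 minus P14 values of Gapdh-ps112 2.37, Mdk 1.37, Ero1b -2.27, Bsg 1.32 and Hnrnpa1-ps33 -1.36, and P21 minus P7 values of Tubb2b 2.85, Tubb3 2.59, Ahsa1 1.89, Mrpl43 1.68, Hspa8 2.62 and Actg1 2.53. Gapdh-ps112 is a pseudogene of a glycolytic enzyme with many near-identical copies, Ero1b an oxidase of protein folding in the endoplasmic reticulum, and Hnrnpa1-ps33 a pseudogene of an RNA-binding protein, so the identity of the pseudogene rows is uncertain. Ero1b gave 0.062 at P7, 1.67 at P14 and -0.60 at P21, and Gapdh-ps112 -0.95 at P7, -1.32 at P14 and 1.05 at P21.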

How the results depend on the processing

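Of 659 values of the 30 largest genes under alternative settings, 644 kept their direction and their call, 13 kept the direction only and 2 turned. These genes were chosen on the same arrays, so this shows no independent support. Sec61g-ps1 turned to 0.67 with blocks of array numbers as a term (adjusted p = 0.608, limma) and with arrays 31 to 36 only (adjusted p = 0.442), 2 settings that give the same estimate because array 36 is then the lone LR array, so that they do not test the lines. The P21 count of 1686 became 3021 with array weights, 616 with that block, 1001 with arrays 31 to 36 only and 2696 with the P21 arrays other than 36, and 1305 to 1757 when single arrays were left out, the lowest without array 33. The split of 959 higher and 727 lower became 1498 and 1523 with weights and 449 and 167 with the block, under which the median of all rows was 0.13. The P21 minus P14 count of 792 became 1326 with weights, 29 with the block and 1273 without arrays 36, 47 and 48, and the P21 minus P7 count of 1308 became 685 with the block. The cause was not tested. Leaving out arrays 36, 47 and 48, and fitting the P21 arrays other than 36, were chosen after seeing the data.

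With the replicate number of the titles as a block, the counts were 1569 at P21, 682 for P21 minus P14 and 1187 for P21 minus P7. Same-numbered samples of both lines correlated at -0.025 to 0.015 in their deviations, so the samples share only a number. Array intensities near the median row limit what dim genes can show.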
